A study of Mus musculus with 5 samples.

Results

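Potassium channel subunits are the genes whose symbol starts with Kcn, and 67 of the 10329 genes in the deposited count table are members by that rule. A second deposited table, of TPM values rounded to whole numbers, lists 88 such genes among 18527. Ribosome footprints, the mRNA fragments that ribosomes protect from nuclease, were sequenced from slices holding hippocampus and cortex, cut from male C57BL/6N mice of wild type genotype aged 28 to 35 days. All libraries came from slices recovered for 3 to 4 h after cutting and exposed to 20 µM homoharringtonine (HHT) for 0, 5, 10, 30 or 60 min, the protocol also naming a 0.05% DMSO vehicle. Each of the 5 libraries is 1 pool of 10 slices from 2 to 3 mice and the only one of its time point. HHT stops ribosomes that have just begun a coding sequence, while those further along read on to the stop codon and leave. No slices kept in vehicle for 5 to 60 min were analysed here, so HHT, vehicle and time after slicing cannot be told apart.

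Potassium channels let potassium leave the cell, which brings the membrane back to rest after an action potential and sets how readily a neuron fires. Several subunits line one pore, so that related genes can mix in one channel. Voltage-gated pores are encoded by Kcna, Kcnb, Kcnc, Kcnd, Kcnq and Kcnh genes. The Kcnf, Kcng, Kcns and Kcnv subunits form no working pore alone and modify Kcnb channels. Calcium or sodium opens the Kcnma, Kcnn and Kcnt channels, Kcnj genes encode inward rectifiers, Kcnk genes tandem-pore leak channels, and Kcnab and Kcnip genes cytoplasmic partners of the voltage-gated pores. FMRP, the protein named in the series' title, is known to bind the sodium-activated channel Kcnt1.

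The libraries held 7155147, 2787749, 2022152, 1504748 and 1346175 counts in time order, and the 67 members took 0.406%, 0.394%, 0.411%, 0.462% and 0.492% of them. Of the cell-type marker lists, 6 of 8 general neuronal, 4 of 7 interneuron and 8 of 8 astrocyte markers were in the count table. So were 5 of 7 oligodendrocyte, 7 of 8 microglial and 4 of 6 endothelial and mural markers. That table lists no gene with a coding sequence of 600 nt or less, so shorter markers could not be in it. An absent marker thus does not show an absent cell type, and these tallies are no check of the tissue. Snap25, an abundant neuronal SNARE gene, was listed at 0 TPM in all libraries, so a listed 0 in the TPM table does not show that a gene is silent. In a bulk slice, fewer cells of a type and less RNA per cell cannot be told apart.

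At 0 min the members spanned a wide range of the per-length signal, which is the count divided by the length of the coding sequence (CDS) less 600 nt, in kilobases. It ran from 15.5 counts per kb for Kcnh6 to 4274 for Kcnab2, with a median of 247 against 221 over all genes. Kcnab2, a cytoplasmic beta subunit of Kcna channels, had 2154 counts, the most of any member. The 5 highest members by this signal were Kcnab2, Kcnip4, Kcnip2, Kcnip3 and Kcnj10, and 4 of them encode cytoplasmic partners rather than pores. Levels of the shortest members depended on the length used. Kcnip2 and Kcnip4, calcium sensors that bind Kcnd channels, have CDS of 663 and 693 nt, so that only 63 and 93 nt were counted as their length. Per kilobase of the full CDS, Kcnip4 went from rank 2 to rank 11 among members and Kcnip2 from rank 3 to rank 24, while Kcnab2 stayed at rank 1 with 1951 counts per kb. Over all 268 genes with a CDS under 700 nt, the median was 764 counts per kb by the deposited length and 74.1 by the full CDS, against 165 and 128 over genes of 2500 to under 3000 nt. By the full CDS the 5 highest members were Kcnab2, Kcnj10, Kcnf1, Kcnv1 and Kcnab1, of which 2 are cytoplasmic partners.

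Among the voltage-gated pores, Kcna2, Kcna1 and Kcna6, the delayed rectifiers of axons, had 1003, 916 and 817 counts per kb at 0 min, and Kcna3, Kcna4 and Kcna5 had 295, 234 and 26.5. Kcnc1, whose fast channels allow rapid firing, had 933, ahead of Kcnc2 (517) and Kcnc4 (411). Kcnd2 (493), the A-type channel of hippocampal dendrites, was above Kcnd3 (257) and Kcnd1 (59.0). Of the M-current genes, Kcnq5 had 254 and Kcnq3 208. Kcnb2, a delayed rectifier, had 75.8, below the modifiers Kcnf1 (1267) and Kcnv1 (1205) by either length. Kcnh7 was highest in its subfamily at 306, and Kcnh6 lowest at 15.5. With 1 library, these orders have counting error as their only measured error.

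Among the remaining pores, Kcnma1, the large-conductance calcium-activated channel, had 581 counts per kb. The sodium-activated Kcnt2 and Kcnt1 had 234 and 134, and Kcnu1, known from sperm, 19.2. Kcnn2, a small-conductance calcium-activated channel, had 825, against 124 for Kcnn3 and 31.5 for Kcnn1. Kcnj10, the inward rectifier by which astrocytes take up potassium, led its subfamily at 1998. The G protein-gated rectifiers Kcnj6, Kcnj3 and Kcnj9 had 1456, 1074 and 495, and Kcnj8, of mural cells, had 17.8 from 12 counts. Kcnk1 was the highest tandem-pore gene at 1328, and the others ranged from 55.0 (Kcnk13) to 409 (Kcnk9).

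**Figure D1:**
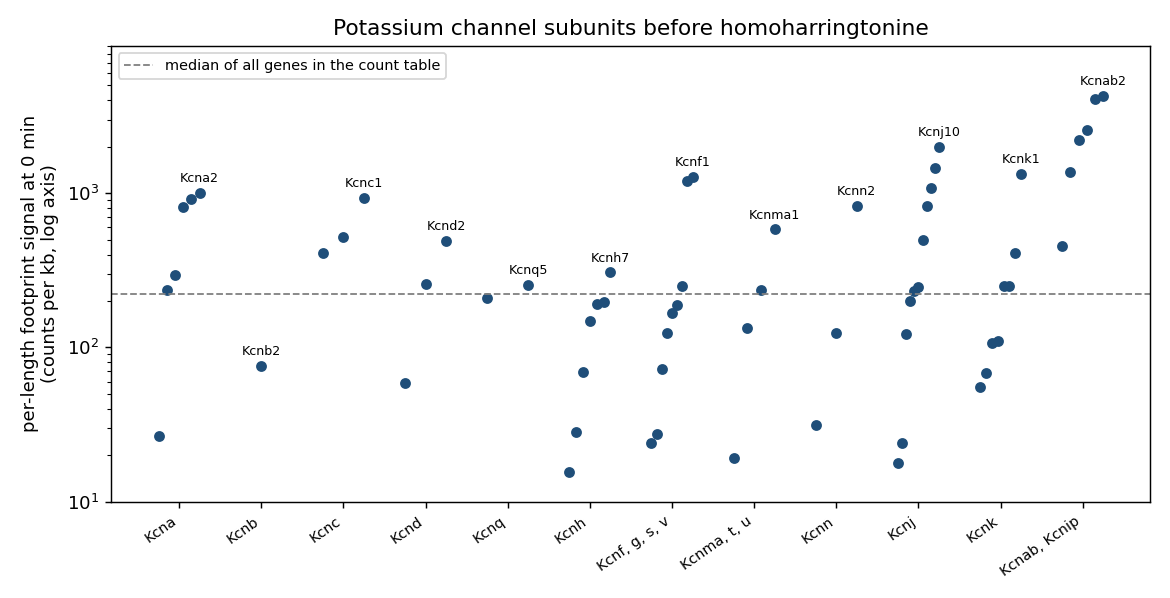
Per-length footprint signal at 0 min (counts per kb, log axis) of 63 potassium channel subunits, 1 point per gene, grouped by subfamily with the highest point of each group named. The dashed line marks the median of all genes, 221. Kcnab2 at 4274 and Kcnh6 at 15.5 are the extremes.

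The time course addresses what share of the subunits' footprints was left as HHT acted for longer. Divided by the deposited library factors, the members' summed counts were 0.391, 0.346, 0.271 and 0.234 of their 0 min value after 5, 10, 30 and 60 min, with a 95% counting interval of 0.228 to 0.240 for the last. The same ratio over all genes was 0.404, 0.341, 0.239 and 0.193. The median member kept 0.374, 0.339, 0.274 and 0.240 of its signal, and the median gene 0.333, 0.268, 0.223 and 0.181. On a slope over log2(minutes + 1) with these factors, 58 of the 64 members with a mean of at least 10 counts fell and 0 rose (edgeR quasi-likelihood test, adjusted p under 0.05), and 0 had a rising slope with an unadjusted p under 0.05. Of all 9444 genes tested, 94.2% fell and 0% rose, so the members' 90.6% is near the background. Kcng4, Kcnj14 and Kcnj8 did not reach the count minimum. The median slope was -0.34 log2 units per unit of log2 time over the members and -0.41 over all genes. On minutes in place of log2 minutes 0 members were called, and without the 0 min library 24 were. Shares over all genes are not given for these settings, so neither count is a result about the members. Every ratio shares that 1 library as its denominator.

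The tested members without a call included Kcns1, Kcng2, Kcnh6, Kcnk13 and Kcns3. Kcns1, a silent subunit that modifies Kcnb channels (chromosome 2, 164163619 to 164171113 in GRCm38), had 225, 120, 154, 124 and 129 counts in time order. Its ratio was 0.553, 0.827, 0.625 and 0.589 (0.471 to 0.735 at 60 min), so the signal at 10 min was 1.5 times that at 5 min. The slope of -0.11 had an SE of 0.079 and an adjusted p of 0.173 by edgeR. Kcng2, another silent subunit (chromosome 18, 80294544 to 80364254), had 105, 47, 49, 37 and 58 counts and kept 0.568 of its signal at 60 min (0.405 to 0.789). Kcnh6 had 35, 22, 27, 17 and 21 counts and a ratio of 0.616 at 60 min (0.341 to 1.09), an interval that includes 1. Kcnk13, a tandem-pore channel known from microglia, had 34, 6, 18, 14 and 12 counts, and Kcns3 24, 6, 7, 9 and 7. The counts of Kcnh6, Kcnk13 and Kcns3 were thus under 40 in every library.

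Of the 50 members with at least 100 counts at 0 min, 2 (Kcns1 and Kcng2) kept over 0.5 of their signal at 60 min, against 1.09% of the 7032 genes with as many counts. A further 5 of the 50 kept under 0.15 (Kcnab1, Kcnn3, Kcnj10, Kcnj16 and Kcnip4), against 32.7% of such genes. Kcnab1, a beta subunit that speeds inactivation of Kcna channels (chromosome 3, 64949212 to 65378225), was the lowest of them. It had 832, 127, 103, 106 and 91 counts, ratios of 0.158, 0.149, 0.145 and 0.112 (0.089 to 0.140 at 60 min) and a slope of -0.52 (SE 0.086, adjusted p = 0.00024, edgeR). Without the 0 min library its slope was -0.13, with an adjusted p of 0.255 in the same edgeR test. Kcnj8 had 12, 1, 4, 3 and 0 counts, too few for a ratio at 60 min.

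**Figure D2:**
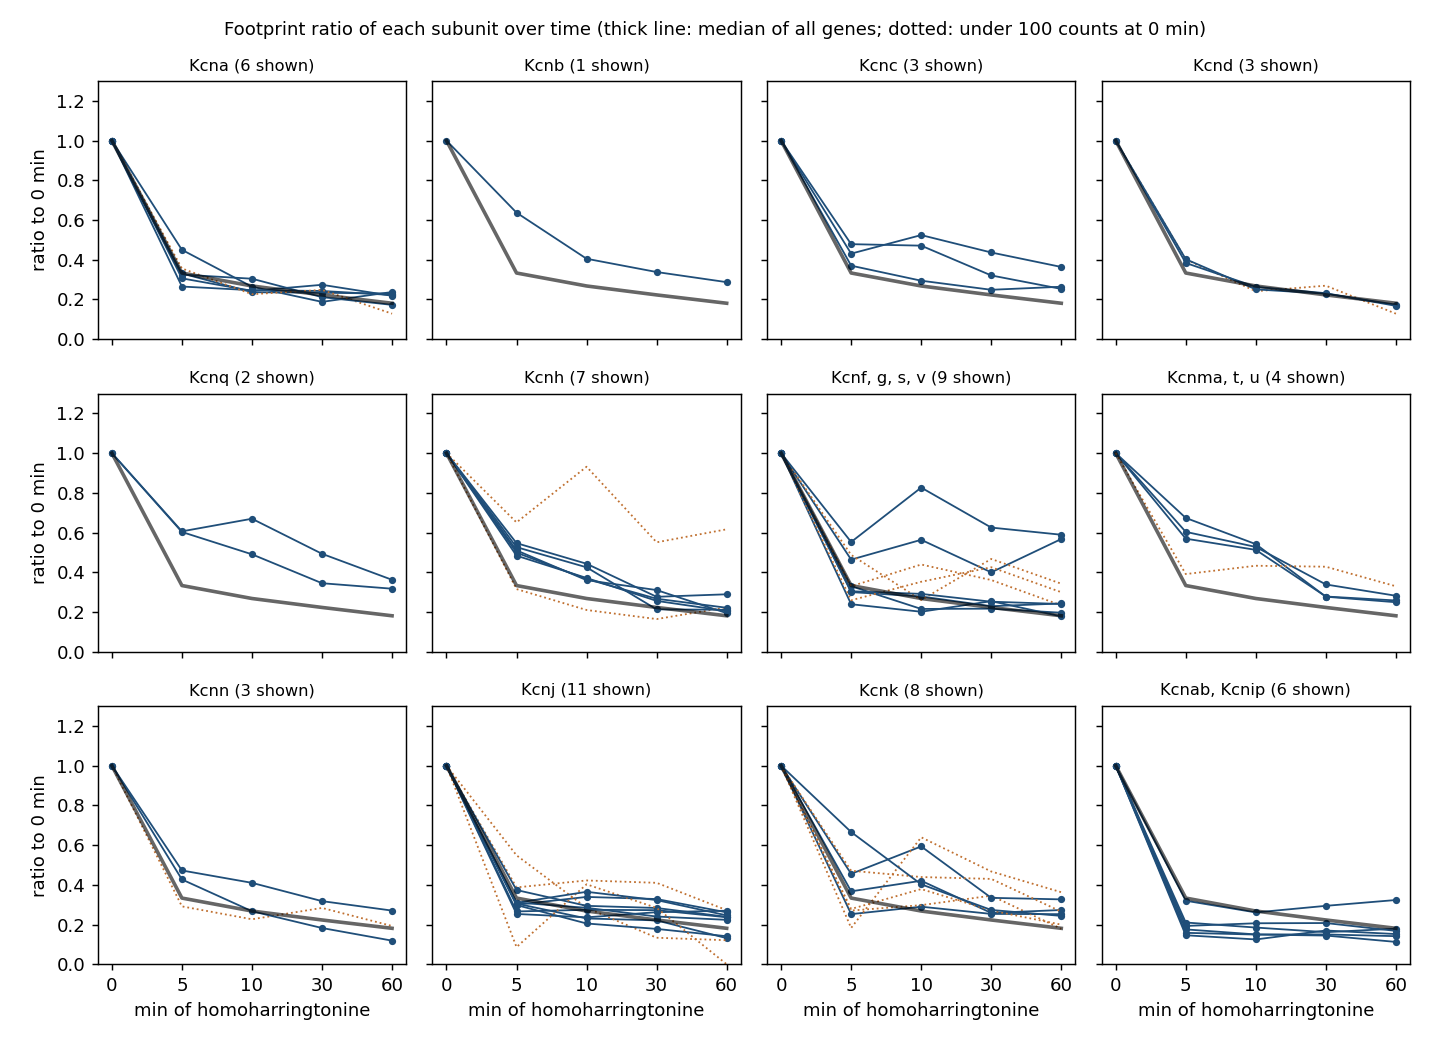
Ratio of each subunit's per-length signal to 0 min (vertical axis, linear) at 0, 5, 10, 30 and 60 min of HHT (horizontal axis, evenly spaced ticks), 1 panel per subfamily group. Solid lines are the 47 subunits with at least 100 counts at 0 min, dotted lines the other 16, and the thick line is the median of all genes; at 60 min Kcns1, Kcng2 and Kcnh6 lie above the rest of the 63 subunits shown.

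The ratios were next set beside CDS length, because a ribosome needs longer to leave a long coding sequence. The members' CDS ranged from 663 nt (Kcnip2) to 3675 nt (Kcnt1). Across the 67 members, Spearman's rho between CDS length and ratio was 0.67, 0.41, 0.19 and 0.16 for the ratios after 5, 10, 30 and 60 min. Over all genes it was 0.70, 0.47, 0.13 and 0.07. These are descriptions across genes that share the same libraries. At 5 min the 8 members of 3000 nt or more had a median ratio of 0.537 and the 29 members under 1500 nt one of 0.298. At 60 min the medians were 0.254 and 0.243.

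The long pores Kcnh7, Kcnma1 and Kcnt2 had the lowest signal at 30 min relative to 10 min among the 50 members with at least 100 counts. Kcnma1 (CDS 3630 nt) had 1761, 1145, 790, 430 and 427 counts. Its ratios were 0.674, 0.542, 0.277 and 0.249, so that its signal at 30 min was 0.511 of that at 10 min. Kcnt2 (3408 nt) had 657, 361, 279, 161 and 165 counts and was at 0.542 of its 10 min signal at 30 min. Kcnt1 had 412, 240, 180, 123 and 113 counts, with ratios of 0.604, 0.528, 0.339 and 0.282. Kcnh7 (3588 nt), a pore of the ether-a-go-go family, had 915, 465, 322, 172 and 188 counts and was at 0.502 of its 10 min signal at 30 min. The 6 cytoplasmic subunits, all short, had ratios from 0.146 to 0.32 at 5 min and from 0.112 to 0.323 at 60 min. Kcnab2 (1104 nt) had 2154, 401, 368, 394 and 352 counts, with ratios of 0.193, 0.206, 0.207 and 0.168. Kcnip3 (855 nt), known also as calsenilin, had 561, 79, 58, 84 and 83 counts, with ratios of 0.146, 0.125, 0.170 and 0.152.

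Of the 50 members with at least 100 counts at 0 min, 11 had a higher per-length signal at 10 than at 5 min, against 25.9% of all such genes. Kcns1 (1.5 times), Kcnk12 (1.3 times), Kcnc1 (1.22 times) and Kcng2 (1.22 times) had the highest steps, and the longest CDS among these 4 is 1536 nt. Kcnk9, a tandem-pore acid-sensitive leak channel of 1209 nt, had the opposite course. It had 249, 160, 83, 60 and 59 counts, and its ratio of 0.666 at 5 min (0.542 to 0.815) compares with a median of 0.249 for genes of 1000 to under 1500 nt. By 60 min its ratio was 0.243, within the range of the other leak channels.

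**Figure D3:**
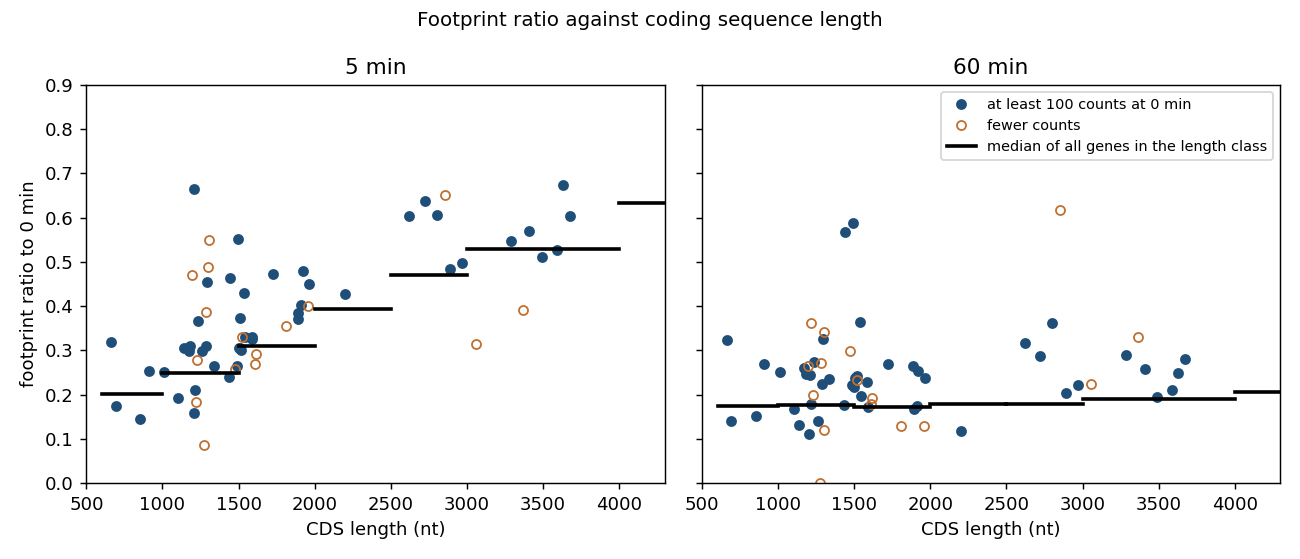
Ratio of per-length signal to 0 min against CDS length (nt) for 63 subunits at 5 min (left) and 60 min (right). Filled points had at least 100 counts at 0 min and open points fewer. Black bars are medians of all genes in 7 length classes, which go from 0.203 to 0.633 at 5 min and only from 0.172 to 0.205 at 60 min.

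To set length aside, ratios were compared within length classes, by dividing each ratio by the median of all genes in its CDS length class and taking log2. The classes begin at the shortest CDS and at 1000, 1500, 2000, 2500, 3000 and 4000 nt. Most subunits kept more footprints than the typical mRNA of their length. The median over the 50 members with at least 100 counts was 0.22, 0.30, 0.23 and 0.46 on this log2 scale after 5, 10, 30 and 60 min, and the 5 min value was 0.11 over members with at least 500 counts. Members above their class numbered 38, 40, 40 and 42 of 50, against 48.4%, 47.2%, 47.6% and 47.8% of all genes with as many counts. At 60 min the counting interval lay wholly above the class median for 31 members and wholly below it for 2 members, Kcnab1 and Kcnj10, against 25.5% and 24.9% of genes. These intervals hold counting error of single libraries alone. General neuronal markers (6 genes) had a median of 0.30 at 60 min, with values from -0.44 (Rbfox3) to 0.92 (Slc17a7). Interneuron markers (4 genes) had 0.41, with Gad2 at -0.23, Gad1 at -0.05, Slc32a1 at 0.87 and Lhx6 at 1.86. Astrocyte markers (8 genes) had -0.63, oligodendrocyte markers (5 genes) -1.27, microglial markers (7 genes) -1.93 and endothelial and mural markers (4 genes) -0.48. The endothelial and mural values ran from -1.21 (Pecam1) to 0.22 (Pdgfrb). The part of cell type in the members' values was not tested.

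Voltage-gated subfamilies differed in how far they stood from their length class. Kcnc1, Kcnc2 and Kcnc4 were above it at 60 min. Kcnc1 (chromosome 7, 46396219 to 46438706) had 873, 363, 379, 336 and 309 counts, a ratio of 0.364 at 60 min (0.318 to 0.415) and a length-relative value of 1.08. Kcnc2 and Kcnc4 had length-relative values of 0.56 and 0.62. Kcnq3 and Kcnq5 were at 0.82 and 1.01. Kcnq5 (chromosome 1, 21398399 to 21962650) had 559, 327, 310, 243 and 197 counts and a ratio of 0.670 at 10 min, against 0.314 for genes of its length class. Kcnb2 had 0.68. Kcna1, Kcna2, Kcna3 and Kcna4 lay from 0.33 to 0.47, and Kcna6 at 0.01. The Kcnd genes with enough counts lay near their class median. Kcnd2 had 637, 236, 139, 130 and 104 counts and a length-relative value of -0.03, and Kcnd3 one of 0.02. Kcnh genes with enough counts lay from 0.04 (Kcnh2, the cardiac repolarising channel) to 0.61 (Kcnh3). No test between subfamilies was made, since each has few genes and they share the same 5 libraries.

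Among these 50 members the silent modifiers held the 2 highest values, 1.73 for Kcns1 and 1.68 for Kcng2. The abundant Kcnf1 and Kcnv1 had 0.50 and 0.48, from 1163, 337, 268, 235 and 275 counts and from 1099, 323, 265, 244 and 257 counts. Kcns2 was at its class median, 0.00, with 156, 36, 26, 35 and 27 counts. Kcns1 and Kcns2, which both modify Kcnb channels and have CDS of 1494 and 1434 nt, thus had 60 min ratios of 0.589 (0.471 to 0.735) and 0.178 (0.114 to 0.269). Their counting intervals do not overlap, but these cover counting error of single libraries alone. Kcns1 was the highest of the 50 members and the pair was chosen after its values were seen, so its difference was not tested.

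Calcium- and sodium-activated pores with at least 100 counts lay between 0.40 and 0.65, apart from Kcnn3. Kcnma1 had 0.40, Kcnt2 0.45, Kcnt1 0.57 and Kcnn2 0.65. Kcnn2 had 928, 423, 315, 260 and 244 counts and a ratio of 0.270 (0.234 to 0.311). Kcnn3, of the same small-conductance subfamily, had 199, 82, 44, 32 and 23 counts and a ratio of 0.119 (0.074 to 0.183), with a length-relative value of -0.60. Its interval at 60 min still includes the class median of 0.180.

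Inward rectifiers known from neurons and from astrocytes lay on opposite sides of their class medians at 60 min, a difference that was not tested. The G protein-gated subunits of neurons, Kcnj3, Kcnj6 and Kcnj9, had ratios of 0.239, 0.269 and 0.246 at 60 min and length-relative values of 0.47, 0.62 and 0.47. Kcnj4, a strong rectifier of forebrain neurons, had 608, 156, 138, 146 and 140 counts and 0.42. Kcnj10 and Kcnj16, which form the astrocyte channel, were both below their class, at -0.43 and -0.33. Kcnj10 (chromosome 1, 172341210 to 172374085) had 1079, 318, 206, 210 and 138 counts and a ratio of 0.131 (0.109 to 0.157). Kcnj16 had 153, 44, 26, 24 and 21 counts and 0.141 (0.085 to 0.223), an interval that includes the class median of 0.177. Both were above their class at 5 min, at 0.29 and 0.26. The 8 astrocyte markers had a median ratio of 0.183 at 5 min and 0.113 at 60 min, and their summed per-length signal went from 94330 to 9398. Relative to length, their median was -0.37 at 5 min, from -1.11 (Sox9) to 0.13 (Slc1a3), and -0.63 at 60 min. At 5 min the pair and the marker median thus lay on opposite sides of their classes. The part of astrocytes in the values of this pair was not tested.

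The 4 tandem-pore channels with enough counts were all above their class. Kcnk12 had 173, 76, 85, 51 and 55 counts and 0.88, and Kcnk2, a channel opened by stretch, 158, 56, 55, 36 and 42 counts and 0.62. Kcnk1 had 546, 133, 131, 122 and 134 counts and 0.51. These counts are not divided by the library factors, which ran from 0.828 to 0.973 after 0 min. Of the 6 cytoplasmic partners, 4 were below their class: Kcnab1 (-0.66), Kcnip4 (-0.31), Kcnip3 (-0.21) and Kcnab2 (-0.08). Kcnab3 was at 0.01. Kcnip2 had 162, 50, 35, 42 and 51 counts and 0.88, on 63 nt of counted length.

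**Figure D4:**
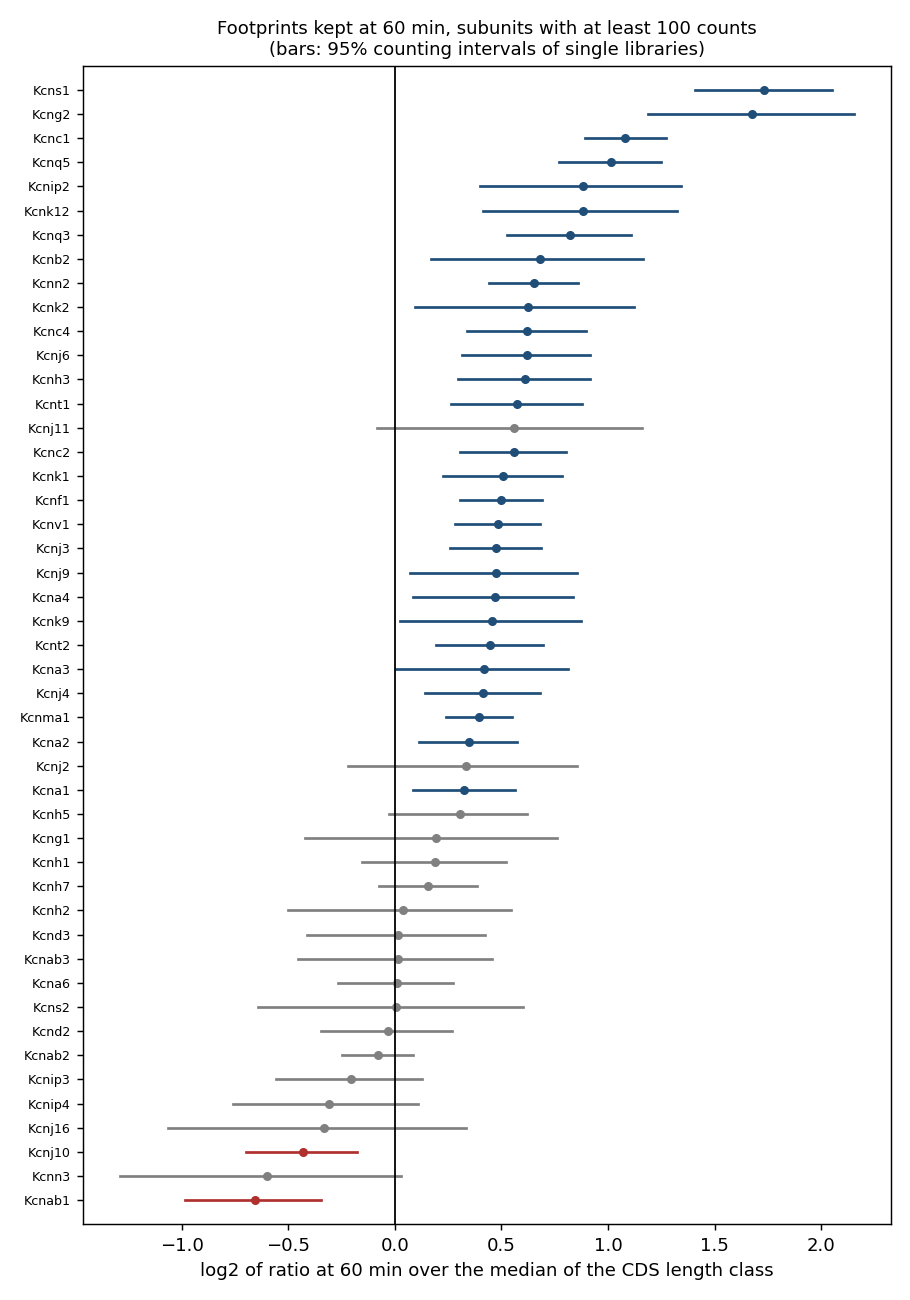
Log2 of each subunit's ratio at 60 min over the median ratio of its CDS length class, for 47 subunits with at least 100 counts at 0 min. Bars are 95% counting intervals, blue where they lie wholly above 0 (28 of those shown), red wholly below (2) and grey where they include 0 (17). Kcns1 (1.73) and Kcnab1 (-0.66) are the extremes.

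The slope test also addresses whether the course of any subunit stood apart from other mRNAs. With libraries scaled by TMM, which sets the typical mRNA to no change, 0 of 64 members were called higher and 0 lower (edgeR quasi-likelihood test, adjusted p under 0.05). Of all 9444 genes, 0% were called higher and 0.0106% lower. With an unadjusted p under 0.05, 5 members were higher and 0 lower, against 6.75% and 5.48% of all genes. DESeq2's Wald test and limma on log2(TPM + 1) also called 0 members in either direction. The lowest adjusted p of a member was 0.168, for Kcns1 (slope 0.29, SE 0.074). Kcng2 (0.25, SE 0.069), Kcnh6 (0.28, SE 0.092) and Kcnc1 (0.18, SE 0.070) were also among the 5. The 5 lowest p with a falling slope were those of Kcnab1 (-0.11, SE 0.066), Kcnn3 (-0.10), Kcnj16 (-0.07), Kcnip4 (-0.07) and Kcnj10 (-0.05). Without the 0 min library the slopes of Kcnab1 and Kcnip4 turned to 0.12 and 0.17, and that of Kcnn3 was -0.28. Slopes above 0 numbered 49 of 64, against 48.4% of genes, with a median of 0.06 over the members and -0.004 over all genes. Without the 0 min library, edgeR called 2 of 64 members higher and 0 lower. The 2 were Kcnip3 (slope 0.31, adjusted p = 0.033, edgeR) and Kcnj6 (0.29, adjusted p = 0.032). Of all genes, 3.85% were called higher and 9.04% lower in that fit, so the 2 members called higher are near the background.

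At single times, TMM-scaled folds against 0 min have no replicate and no p, and they are not adjusted for CDS length. Summing both libraries, 52 members had at least 100 counts at 5 min, of which 1 was at least 2-fold higher (Kcnma1, log2 fold 1.02) and 2 at least 2-fold lower (Kcnip3, -1.17, and Kcnab1, -1.06). The shares over all genes were 6.11% and 5.77%. On the log2 scale relative to their length classes, these 3 were at 0.35 (Kcnma1), -0.47 (Kcnip3) and -0.66 (Kcnab1) at 5 min. At 10 min 5 of 51 were higher (Kcns1, Kcnq5, Kcnk12, Kcng2 and Kcnma1, from 1.61 to 1.02) and 1 lower (Kcnip3, -1.08), against 13.1% and 5.68%. At 30 min 2 were higher (Kcns1, 1.45, and Kcnq5, 1.12) and 0 lower, against 3.92% and 4.42%. At 60 min 2 were higher (Kcns1, 1.66, and Kcng2, 1.59) and 0 lower, against 4.54% and 5.08%. The shares of members higher, 1.92%, 9.80%, 3.92% and 3.92%, were near or below those over all genes.

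Proteins known to bind or anchor potassium channels, with symbols outside the Kcn family, were taken from a list of 30, of which 25 were in the count table. On the slope with deposited factors 25 of 25 fell, and on the TMM-scaled slope 0 were called higher and 0 lower (edgeR). Of all 9444 genes, 94.2% fell on the former, and 0% were called higher and 0.0106% lower on the latter. The partners' counts are thus near the background. Their median ratio was 0.452, 0.350, 0.294 and 0.232, and their median length-relative value 0.36 at 60 min. Dpp6 and Dpp10, the membrane partners of Kcnd channels, had ratios of 0.243 and 0.231 at 60 min, above those of Kcnd2 (0.168) and Kcnd3 (0.174). Cntnap2, which clusters Kcna channels beside the node of Ranvier, had 0.290, and Lgi1, a secreted protein of the same complexes, 0.233. Ank3, the ankyrin that anchors Kcnq channels at the axon initial segment, had 0.279. Sptbn4, a spectrin of that site, had the highest value at 0.443, and Akap5, a kinase anchor of Kcnq channels, the lowest at 0.106.

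The TPM table held 21 further members without counts. Of these, 4 reached 10 TPM in at least 1 library. Kcnip1, a calcium sensor of interneurons, had 43, 20, 23, 76 and 55 TPM in time order. Kcnj13, a rectifier of the choroid plexus, had 5, 5, 12, 24 and 16. Kcnmb2 and Kcnmb4, beta subunits of Kcnma1, had 12, 14, 0, 12 and 7 and 22, 0, 0, 0 and 0. A further 10 peaked at 1 to 5 TPM and 7 were listed at 0 throughout. These TPM have no stated depth, so no interval is given.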

How the data were processed

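The submitters' processing notes name the mm10 build and these tools, without their roles: SAMtools 0.0.19, TopHat2 2.0.9, Bowtie2 2.1.0, Trimmomatic 0.32 and cutadapt 1.7.1. Expected counts per gene, whole numbers as deposited, come from a table whose name gives RSEM and the CDS without its ends. The deposited per-length signal equals the count over CDS length less 600 nt and over library factors of 1, 0.965, 0.828, 0.882 and 0.973, whose origin is not stated. Ratios were recomputed from the signal and equal the deposited ratio columns. The deposited rate scores were not used, and the second table holds a deposited score, TPM rounded to whole numbers. CDS length is a further deposited column. Each gene has 1 transcript, so isoforms cannot be told apart, and the handling of reads shared by near-identical paralogs is not stated. All 67 transcripts matched RefSeq genes of GRCm38.p6 with the same symbol, which gave the positions.

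Slopes on log2(minutes + 1) over the 5 libraries were fitted to all genes with a mean of at least 10 counts by edgeR 4.0.16 in R 4.3.3, with TMM or the deposited factors and Benjamini-Hochberg adjustment over all 9444 genes. With 3 residual degrees of freedom, library scatter and departure from a line are not separated. The test was also run on simulated counts with known slopes, and that outcome is not reported here. DESeq2 1.42.0 and limma 3.58.1 served as alternatives. Folds at single times used TMM-scaled counts with a prior count of 2. Intervals are exact 95% conditional binomial (Clopper-Pearson) intervals on 2 libraries and cover counting error only. The members and lists were chosen with earlier results of these data known. Named by rule were the highest member of each subfamily at 0 min, the 8 highest and 8 lowest length-relative ratios at 60 min, the 5 highest at 10 min, the 5 smallest slope p-values in each direction, and chosen channels of known cell types; other members named, and the pairs set side by side, were chosen after their values were seen. A further 4 members are counted in every total but are not reported singly here.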

Additional observations from a re-analysis of the deposited data

How the results depend on the processing

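Of 85 alternative values for the main results, 69 stayed close to the reported value and 16 moved, and the cause was not tested. Many of the 69 are counts of 0 calls beside a reported 0. These say little, since almost no gene was called in those directions in the main fits. The 5 min length-relative median also counted as close at 0.11, against a reported 0.22. On the deposited-factor slope, 58 members fell; 0 did on minutes, and leaving out 1 library at a time gave 24 (without 0 min) to 60 (without 5 min). On the TMM-scaled slope the members called higher ranged from 0 to 2 when 1 library was left out, and other settings called 0. The summed 60 min ratio of 0.234 became 1.28 under TMM scaling, which sets the typical mRNA to 1. Counts of members at least 2-fold lower were 39, 43, 50 and 49 at 5, 10, 30 and 60 min with the deposited factors, with 0 higher at each time. On that scale the median gene was itself at 0.333, 0.268, 0.223 and 0.181 of its 0 min signal, so such falls were common. With at least 20 counts in both libraries, members at least 2-fold higher were 2, 8, 4 and 4. Shares over all genes are not given here for these alternative counts, so they are not results about the members. The length-relative medians ranged from 0.11 to 0.23, 0.28 to 0.34, 0.20 to 0.33 and 0.45 to 0.48 after 5, 10, 30 and 60 min. The reference was the 200 genes nearest in length, or only genes with at least 100 counts at 0 min. Other settings took other count minimums for members, or left out the 4 members with the highest 60 min ratios. The last setting was chosen after the data were seen. For the 9 members whose slopes were followed singly, 9 alternative values kept their direction but lost the call, all on minutes or without the 0 min library. Leaving out 1 library at a time, 3 uncalled slopes changed sign, each without the 0 min library: the TMM-scaled slopes of Kcnab1 (-0.11, range -0.15 to 0.12) and Kcnip4 (-0.07, range -0.14 to 0.17) and the deposited-factor slope of Kcng2 (-0.16, range -0.26 to 0.026). Depth limits the 17 members under 100 counts at 0 min most, and all results rest on 1 library per time.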
